A study of Homo sapiens with 6 samples.

Results

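The smooth muscle contractile genes are the genes whose products build and regulate the actin and myosin filaments of smooth muscle cells. Their 10 members were taken by gene symbol (ACTA2, CNN1, TAGLN, MYH11, MYL9, TPM1, TPM2, CALD1, LMOD1 and DES), and all 10 were found among the 58735 genes of the count table. RNA of UE7T-9 cells, a mesenchymal stem cell line from human bone marrow, was compared between Control cells (genotype WT, 3 libraries) and SRRM4 KO cells (3 libraries), in which SRRM4, a gene for a neuronal splicing factor, had been targeted by CRISPR with a lentiviral vector. The SRRM4 KO line was cloned from 1 cell after puromycin selection, the Control cells were not described as cloned, and complete loss of the SRRM4 protein was not obtained, so the line is a partial knockout. UE7T-9 cells were kept in DMEM with serum. Nothing in the labels says that the libraries of a group came from separate cultures, so p-values measure the spread between these libraries, which may be technical.

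In smooth muscle, calcium bound to calmodulin activates myosin light chain kinase, which phosphorylates the regulatory light chain of myosin II and lets the motor pull on actin filaments. Tropomyosins, caldesmon, calponin and transgelin lie along these filaments, leiomodin starts new ones, and desmin filaments tie the contractile units together. Many of the genes are activated by serum response factor (SRF) with myocardin or a myocardin-related cofactor, through a promoter element called the CArG box. Bone marrow mesenchymal stem cells and fibroblasts in culture also carry part of this set, alpha smooth muscle actin (ACTA2) and transgelin above all, without being smooth muscle.

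The libraries held between 21496117 and 23868323 counts, so that 3 counts, the most that a count of 0 allows, were 0.123 to 0.139 CPM (counts relative to library size, scaled by TMM). This limit covers counting error only. SRRM4 had 0 counts in all 6 libraries, and the knockout could therefore not be checked in these data. Control replicate 1 had counts in 22403 genes, against 20613 and 20674 in the other Control libraries. Of the mesenchymal markers, NT5E stood at 342 ± 20.7 CPM in Control and 489.6 ± 8.19 CPM in SRRM4 KO, and ENG at 246 ± 19.6 and 194 ± 7.96 CPM (SD, n = 3 each). THY1, the third marker, fell from 144 ± 17.7 to 26.7 ± 2.62 CPM (SD, n = 3). Of 15341 genes tested, 1096 (7.14%) were called lower and 836 (5.45%) higher in SRRM4 KO. Calling a gene required both a log2 fold change beyond 1 and an adjusted p under 0.05 in edgeR's quasi-likelihood test (Benjamini-Hochberg over all genes tested), and "fell" and "rose" are used only for called genes.

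The contractile genes were lower in SRRM4 KO cells. Of the 10 members, 5 were called lower (ACTA2, LMOD1, CNN1, TPM2 and CALD1), against 7.14% of all genes tested. No member was called higher with edgeR, with DESeq2 or at an unadjusted p under 0.05 (0 in each case). TAGLN, TPM1 and MYL9 had adjusted p-values under 0.05 but log2 fold changes between -0.95 and -0.50, and MYH11 passed the fold threshold but not that on the adjusted p. DES was removed by the filter on low counts. The median log2 fold change of the 9 tested members was -1.27, and that of all tested genes was -0.01. MYH11 passed the filter through its Control libraries, so the median is a description. In each of the 9 tested members the 3 SRRM4 KO libraries lay below the 3 Control libraries, an order found in 25.9% of all tested genes. The 10 genes together took 0.599% to 0.680% of the counts of a Control library and 0.325% to 0.335% of those of an SRRM4 KO library. In RNA from whole cultures, fewer cells that express a gene and less RNA per cell cannot be told apart.

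**Figure D1:**
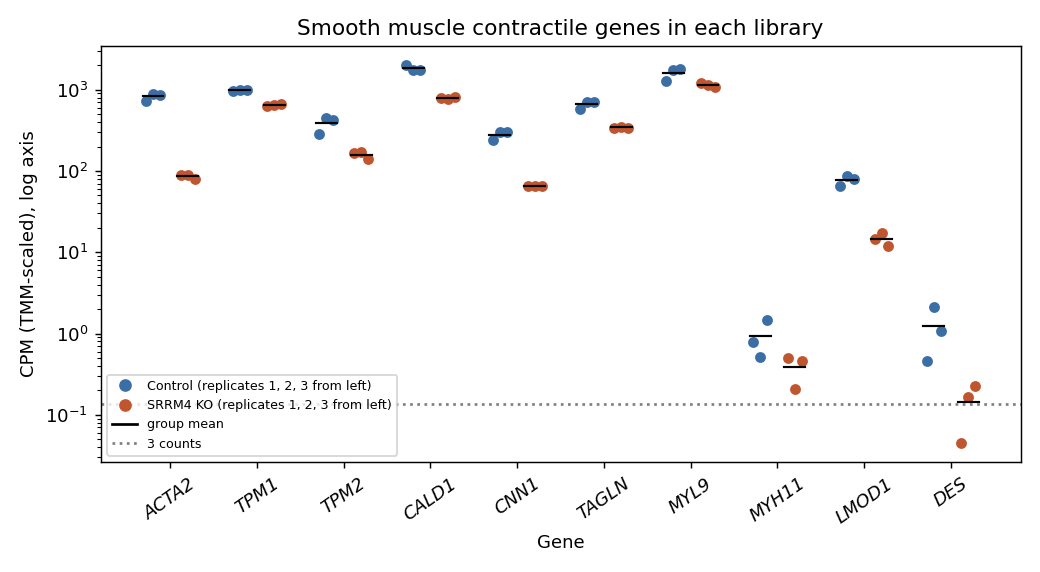
Level of the 10 smooth muscle contractile genes in each library, in CPM on a log axis (points, 3 per group, with black lines at the group means and a dotted line at the mean CPM of 3 counts). All 10 genes are lower in the SRRM4 KO libraries, and MYH11 and DES have the lowest levels in both groups, with DES near the line of 3 counts in SRRM4 KO.

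ACTA2 (ENSG00000107796; chromosome 10, 88935074 to 88991339, minus strand, GRCh38) encodes alpha smooth muscle actin, the thin filament actin of vascular smooth muscle and of myofibroblasts. It stood at 719.7, 889 and 870.1 CPM in Control replicates 1 to 3 and at 89.6, 89.5 and 80.3 CPM in SRRM4 KO replicates 1 to 3. The groups were far apart, and the lowest Control library was Control replicate 1. From 826 ± 92.6 to 86.5 ± 5.30 CPM (SD, n = 3), ACTA2 fell by 3.26 on the log2 scale (SE 0.10), a 9.55-fold fall (adjusted p = 3.13e-12, edgeR's quasi-likelihood test). It had the largest fall among the 9 tested members. The 95% interval of its log2 fold change, -3.46 to -3.05, did not reach that of any other member tested.

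ACTA2 shares exonic sequence with FAS, the gene of a death receptor, and with ACTA2-AS1, both on the opposite strand. The shared bases make up 12.8% (380 bases) and 17.3% (516 bases) of its exonic bases, and the libraries were not stranded. FAS had 1907, 1634 and 1570 counts in Control and 3958, 4442 and 4363 in SRRM4 KO, and rose by 1.25 on the log2 scale (SE 0.10, adjusted p = 7.53e-08, edgeR). FAS thus went the opposite way to ACTA2. ACTA2-AS1 went from 146, 156 and 131 counts in the Control libraries to 21, 17 and 9 in the SRRM4 KO libraries. It fell by 3.26 on the log2 scale (SE 0.30, adjusted p = 5.37e-07, edgeR). It passed the filter through its Control libraries, and its reads cannot be told from those of ACTA2 in the shared bases.

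The RefSeq promoter set holds 2 windows of ACTA2, and the 250 bases before the shorter transcript's start, at position 88952773, hold 2 CArG boxes of the variant form with 1 G or C in the A/T core, 121 and 71 bases before the start. The stretch that holds both is shown because ACTA2 fell most among the 9 tested members. The second sequence is from ACTG2, the enteric smooth muscle actin, which also fell and has 2 full CArG boxes. The third is from ACTG1, a cytoplasmic actin that was not called and has 1 full box. The stretches are chr10:88952825-88952904 (minus strand), chr2:73892888-73892954 (plus strand) and chr17:81512874-81512903 (minus strand) of GRCh38.p14, written 5′ to 3′ along the gene with the boxes in capitals.
ACTA2: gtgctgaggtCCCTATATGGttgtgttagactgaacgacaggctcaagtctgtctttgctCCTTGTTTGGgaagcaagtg
ACTG2: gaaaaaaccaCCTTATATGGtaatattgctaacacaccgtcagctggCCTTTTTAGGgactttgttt
ACTG1: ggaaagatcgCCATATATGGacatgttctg

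A full CArG box stood in 1.16% of the 35116 RefSeq promoter windows (250 bases before the start, where both strands read alike), and a full or variant box in 7.04%. Counted over genes, the shares were 1.44% and 8.60%. Of the members, 6 had windows in the RefSeq set (11 windows). Among these 6, no full box was found, and 2 members, ACTA2 and CALD1, had a variant box. For CALD1 it lay 26 bases before a start that is outside the gene's interval in the count table. TAGLN, MYL9, MYH11 and DES were not matched. Full boxes were also found before starts of ACTC1, ACTA1, MYLK, SMTN and SRF, for which values are given further on. The MYLK start, at 123620548, lies well inside the gene's interval (123610049 to 123884331, minus strand). That of SMTN, at 31084996, also lies inside its interval (31064105 to 31104757, plus strand). Gene counts do not separate the transcripts that begin at these starts. The boxes are matches of letters and were not shown to bind a factor here.

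Of the 5 thin filament regulators, 3 were called lower (CNN1, CALD1 and TPM2) and TPM1 and TAGLN were not called, against 7.14% of all genes tested called lower. CNN1 (ENSG00000130176; chromosome 19, 11538717 to 11550323) encodes calponin 1, which binds actin and slows the myosin motor. It stood at 239, 301 and 301 CPM in Control and at 65.8, 65.7 and 64.5 CPM in SRRM4 KO. The SRRM4 KO libraries hardly differed among themselves. Calponin 1 mRNA (CNN1) fell from 280.2 ± 35.5 to 65.3 ± 0.712 CPM (SD, n = 3; log2 fold change -2.10, SE 0.10, adjusted p = 3.76e-10, edgeR), or 4.29-fold.

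CALD1 (ENSG00000122786; chromosome 7, 134744252 to 134970728) encodes caldesmon, which holds tropomyosin in place on actin and has a long smooth muscle form and a short form of other cells. It stood at 2020.2, 1732 and 1770.5 CPM in Control and at 782, 762 and 813 CPM in SRRM4 KO. CALD1 was the member that was highest in Control replicate 1. It fell from 1841 ± 156 to 786 ± 25.6 CPM (SD, n = 3; log2 fold change -1.23, SE 0.07, adjusted p = 4.17e-09, edgeR). The counts are sums over 24 annotated transcripts (GENCODE 29) and do not show which form fell.

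The tropomyosin genes TPM1 and TPM2 encode coiled-coil proteins that run along the groove of the actin filament. TPM2 (ENSG00000198467; chromosome 9, 35681992 to 35690121) stood at 285, 453 and 421 CPM in Control and at 166, 171 and 140.2 CPM in SRRM4 KO. Control replicate 1 lay between the other Control libraries and the SRRM4 KO libraries. TPM2 fell by 1.28 on the log2 scale (SE 0.14, adjusted p = 2.61e-06, edgeR), from 386 ± 89.6 to 159 ± 16.5 CPM (SD, n = 3). Its 95% interval, -1.58 to -0.99, includes the fold threshold, and a test against that threshold (glmTreat) did not call it (adjusted p = 0.106).

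TPM1 (ENSG00000140416; chromosome 15, 63042632 to 63071915) stood at 958, 999 and 985 CPM in Control and at 630.5, 651 and 658 CPM in SRRM4 KO. The spread within each group was small, at 981 ± 20.97 and 646 ± 14.3 CPM (SD, n = 3). The log2 fold change was -0.60 (SE 0.06, adjusted p = 2.56e-06, edgeR), which is larger than the spread between replicates but short of the fold threshold. TPM1 has 34 annotated transcripts with muscle and non-muscle forms, which the counts do not separate. TPM1-AS, on the opposite strand, shares 2070 exonic bases with TPM1 (16.1% of those of TPM1) and had at most 43 counts in a library.

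TAGLN (ENSG00000149591; chromosome 11, 117199321 to 117204782) encodes transgelin (SM22 alpha), an actin-bundling protein of smooth muscle. It stood at 573, 712 and 709 CPM in Control and at 340.1, 349.7 and 342 CPM in SRRM4 KO. Its log2 fold change was -0.95 (SE 0.09, adjusted p = 4.40e-07, edgeR), and it was called at -1.05 when Control replicate 1 was left out. PCSK7, on the opposite strand, shares 446 exonic bases with TAGLN (11.4% of those of TAGLN) and stood at 40.6 and 40.1 CPM on average in Control and SRRM4 KO.

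**Figure D2:**
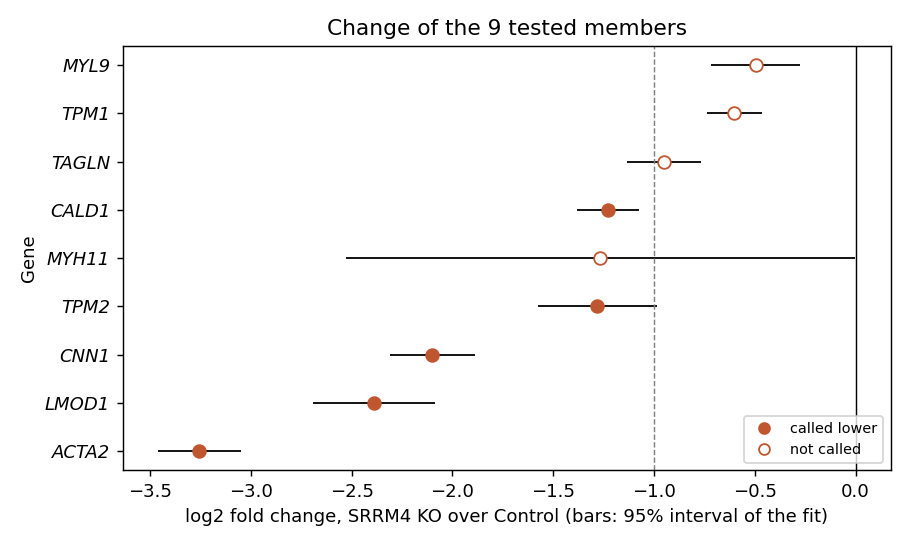
Log2 fold change of the 9 tested members, SRRM4 KO over Control, with 95% intervals from the edgeR fit (bars). Filled points are called lower and open points are not called. The dashed line marks a log2 fold change of -1. ACTA2 (-3.26), LMOD1 (-2.39) and CNN1 (-2.10) lie well past it, and the interval of MYH11 runs from -2.53 to -0.01.

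Neither gene of the myosin motor was called. MYL9 (ENSG00000101335; chromosome 20, 36541484 to 36551447) encodes the myosin regulatory light chain that myosin light chain kinase phosphorylates. It stood at 1272, 1745 and 1790.1 CPM in Control and at 1199, 1142 and 1068 CPM in SRRM4 KO. The nearest libraries of the groups, Control replicate 1 and SRRM4 KO replicate 1, were close to each other. The log2 fold change was -0.50 (SE 0.10, adjusted p = 0.00125, edgeR), the smallest of the 9 tested members, and -0.64 without Control replicate 1.

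MYH11 (ENSG00000133392; chromosome 16, 15703172 to 15857033) encodes the smooth muscle myosin heavy chain, the most specific marker of differentiated smooth muscle. It had 17, 11 and 33 counts in Control and 11, 5 and 10 in SRRM4 KO. Counts of 11 occurred in both groups, and in CPM the groups nearly touched. The log2 fold change of -1.27 (SE 0.59) was beyond the fold threshold, but the adjusted p of 0.101 (edgeR) was not under 0.05. MYH11 shares 765 exonic bases (4.75%) with NDE1 on the opposite strand, which was not called (33.0 CPM on average in SRRM4 KO and 28.8 in Control).

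LMOD1 (ENSG00000163431; chromosome 1, 201896452 to 201946588) encodes leiomodin 1, which starts actin filaments in smooth muscle. It stood at 65.5, 86.5 and 78.6 CPM in Control and at 14.5, 17.5 and 11.9 CPM in SRRM4 KO. No SRRM4 KO library came near a Control library. LMOD1 fell by 2.39 on the log2 scale (SE 0.14, adjusted p = 5.04e-09, edgeR), or 5.24-fold, from 76.9 ± 10.6 to 14.6 ± 2.79 CPM (SD, n = 3). Among the 9 tested members this was the fall next to that of ACTA2 in size.

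DES (ENSG00000175084; chromosome 2, 219418377 to 219426739) encodes desmin, the intermediate filament protein of muscle. It had 10, 46 and 24 counts in Control and 1, 4 and 5 in SRRM4 KO. The Control libraries differed widely from one another. Without the filter on low counts, over 27405 genes, the log2 fold change was -3.02 (SE 0.72, adjusted p = 0.000203, edgeR). When a library was left out, DES passed the filter through its Control libraries in some fits, with values between -3.46 and -2.36, and calls in those fits add no support.

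Levels can be compared between genes only per length, here as CPM per kilobase of annotated exons. In Control the order was MYL9 (568 ± 102), ACTA2 (278 ± 31.1), CALD1 (187 ± 15.9), TAGLN (169.7 ± 20.4), TPM2 (119 ± 27.6), CNN1 (97.0 ± 12.3), TPM1 (76.2 ± 1.63) and LMOD1 (19.4 ± 2.66), in CPM per kilobase (SD, n = 3). The ranges of CALD1 and TAGLN overlapped, as did those of TPM2 and CNN1. DES and MYH11 were under 1 CPM per kilobase in every library. In SRRM4 KO, ACTA2 went from place 2 to place 6, at 29.1 ± 1.78 CPM per kilobase, below TPM1 (50.2 ± 1.11) and TPM2 (48.9 ± 5.07), which overlapped. MYL9 stayed at the top (403 ± 23.2), followed by TAGLN (87.8 ± 1.28) and CALD1 (79.9 ± 2.60). The exon lengths count all annotated transcripts, so genes with many forms such as TPM1 are understated.

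**Figure D3:**
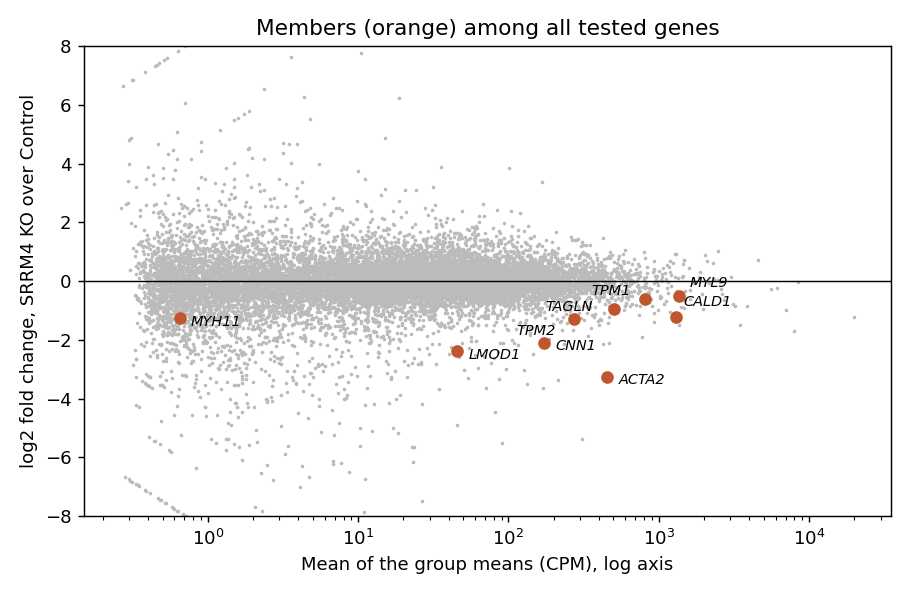
Log2 fold change (SRRM4 KO over Control) against mean level in CPM on a log axis for all 15341 tested genes (grey, 34 genes beyond 8 in either direction not drawn) and the 9 tested members (orange). ACTA2 lies at -3.26 and MYL9, among the most abundant genes, at -0.50.

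Most members, but not all, were lowest in Control replicate 1 within the Control group. Of the 10 members, 8 were lowest in Control replicate 1, and CALD1 was highest there. Among all tested genes, 38.2% were lowest in that Control library and 40.3% highest. The ratio of Control replicate 1 to the mean of the other 2 Control libraries was 0.651 for TPM2, 0.720 for MYL9, 0.819 for ACTA2, 0.965 for TPM1 and 1.15 for CALD1. Over all tested genes the median of this ratio was 1.00. Whether the larger number of genes counted in this library has a part in this was not tested. Without Control replicate 1, 7 members were called lower, TAGLN and DES being added. DES passed the filter through its Control libraries, so its call adds no support. That fit tested 15802 genes, and the fits with a library left out called 1029 to 1162 of all genes lower. The log2 fold changes without Control replicate 1 were -3.35 for ACTA2, -1.46 for TPM2 and -1.16 for CALD1.

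Several members that fell had close paralogs that were not called, and the share of a member in its gene family was measured in counts per kilobase. ACTA2 made up 8.07%, 8.71% and 8.32% of actin counts in Control and 0.839%, 0.844% and 0.769% in SRRM4 KO. ACTG2 and ACTC1, also muscle actins, were called lower. ACTG2 had 338, 496 and 482 counts in the Control libraries and 17, 20 and 6 in the SRRM4 KO libraries, and fell by 4.99 on the log2 scale (SE 0.28, adjusted p = 2.23e-09, edgeR). ACTC1, the cardiac actin, fell by 2.62 (SE 0.26, adjusted p = 9.31e-07, edgeR), and ACTA1, the skeletal actin, had at most 2 counts in a library. The cytoplasmic actins were not called. ACTG1 stood at 3467 ± 329 CPM in Control and 5752 ± 17.4 CPM in SRRM4 KO (SD, n = 3), or 0.73 on the log2 scale (SE 0.07, adjusted p = 3.89e-07, edgeR). ACTB was at -0.22 (SE 0.06, adjusted p = 0.00668, edgeR). The actin genes are close copies of each other, and how reads with several matches were counted is not given in the sources used here, so counts of the rare actins carry that uncertainty.

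Shares of calponins, transgelins and leiomodins were lower as well. CNN1 made up 27.4% ± 1.18 of calponin counts in Control and 7.98% ± 0.0612 in SRRM4 KO (SD, n = 3), while CNN2 and CNN3, found in many cell types, were at log2 fold changes of -0.20 and 0.21 and were not called. TAGLN made up 48.7% ± 2.06 of transgelin counts and then 26.3% ± 1.10 (SD, n = 3), while TAGLN2 was at 0.46 on the log2 scale (adjusted p = 0.00436, edgeR). LMOD1 made up 43.0% ± 5.55 of the leiomodin and tropomodulin counts in Control and 12.8% ± 2.62 in SRRM4 KO (SD, n = 3). On raw counts, without gene length, these shares were 22.2% and 5.19%. TMOD3, the main tropomodulin here, was at 0.07 on the log2 scale. TMOD1 was called lower (log2 fold change -1.19, adjusted p = 0.0359, edgeR), but not without Control replicate 2 or SRRM4 KO replicates 2 or 3, nor with glmTreat. With those libraries left out in turn, its value lay between -0.998 and -0.887.

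In the tropomyosin family TPM2 went from 27.1% ± 4.68 to 15.7% ± 1.44 and TPM1 from 17.5% ± 0.844 to 16.1% ± 0.453 of the counts per kilobase (SD, n = 3). On raw counts TPM2 went from 11.2% to 6.06% and TPM1 from 28.6% to 24.6%. TPM3 and TPM4, tropomyosins of many cell types, were at log2 fold changes of 0.32 and -0.29 and were not called. In the regulatory light chain family MYL9 made up 57.8% ± 4.50 and 57.3% ± 2.95 of the counts per kilobase in Control and SRRM4 KO (SD, n = 3), a difference within the spread between libraries (exact two-sided permutation p = 0.8). MYL12A (-0.66) and MYL12B (-0.32), the non-muscle light chains, were lower like MYL9, without being called. For the shares of ACTA2, TPM1, TPM2, CNN1, TAGLN, LMOD1 and DES the groups did not overlap, and the exact permutation p was 0.1, the smallest that 3 libraries against 3 allow. MYH11 was under 0.03% of myosin II heavy chain counts in every library (exact permutation p = 0.3 between the groups). MYH9, the main non-muscle heavy chain, was at -0.43 and MYH10 at -0.93 on the log2 scale. Among intermediate filaments, VIM (vimentin) was at 0.36 and SYNM at -0.83, and NES (nestin) fell by 1.54 on the log2 scale (SE 0.17, adjusted p = 3.82e-06, edgeR).

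**Figure D4:**
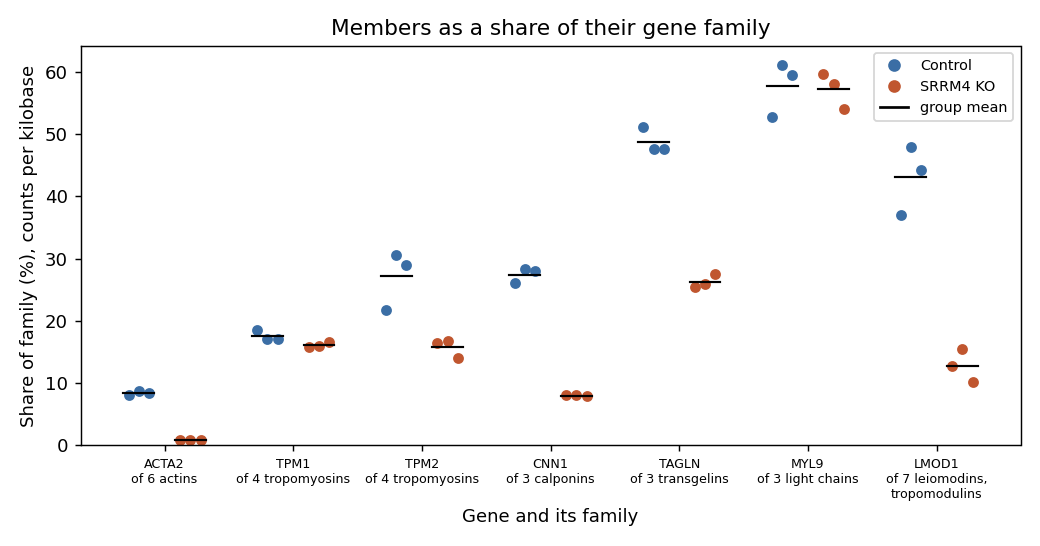
Share of 7 members in their gene family, as a percent of the family's counts per kilobase, in each library (points) with group means (lines). ACTA2 goes from 8.37% to 0.817% of actins and CNN1 from 27.4% to 7.98% of calponins, while MYL9 is at 57.8% and 57.3% of regulatory light chains.

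Of 12 genes that control contraction, 11 could be tested and 0 were called in either direction with edgeR or DESeq2. Over all genes tested the shares were 7.14% lower and 5.45% higher, under which a list this short can hold no called gene, so the count says little about the list. At an unadjusted p under 0.05, 6 were lower and 3 higher, against 24.7% and 24.3% of all genes tested. Their median log2 fold change was -0.17, and the values ran from -0.76 for PRKG1, the kinase of cyclic GMP that relaxes smooth muscle, to 0.60 for CALM3, a calmodulin gene. MYLK, the light chain kinase, stood at 144 ± 4.92 CPM in Control and 183 ± 1.46 CPM in SRRM4 KO (SD, n = 3), or 0.35 on the log2 scale (SE 0.08, adjusted p = 0.00206, edgeR). RHOA, ROCK1 and ROCK2, which keep the light chain phosphorylated, were at -0.05, -0.42 and -0.27. PPP1R14A, an inhibitor of myosin phosphatase that the filter removed, was picked out after its values were seen. Its counts were 22, 31 and 10 in the Control libraries and 0 in all SRRM4 KO libraries. Against its Control mean of 0.967 ± 0.497 CPM (SD, n = 3), it was at least 7.36-fold lower if 3 counts are allowed per library. That bound leaves out the spread between the Control libraries.

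Of 13 genes of transcriptional control, 12 were tested, 2 were called lower and 0 higher with edgeR, against 7.14% and 5.45% of all genes tested. At an unadjusted p under 0.05, 7 were lower and 2 higher, against 24.7% and 24.3% of all genes tested, and DESeq2 called 0 higher. MYOCD (myocardin), the SRF cofactor that drives smooth muscle genes, had 62, 60 and 71 counts in Control and 25, 12 and 12 in SRRM4 KO. It was thus rare in both groups. MYOCD fell by 2.03 on the log2 scale (SE 0.39, adjusted p = 0.000677, edgeR), and over the alternatives the value ran from -2.50 to -1.82. CSRP2, a LIM protein of smooth muscle, fell by 1.75 (SE 0.17, adjusted p = 7.04e-07, edgeR), from 19.6 ± 3.98 to 5.85 ± 0.274 CPM (SD, n = 3). SRF itself stood at 111 ± 11.6 and 105 ± 8.76 CPM (SD, n = 3), or -0.08 on the log2 scale with a 95% interval from -0.29 to 0.13. The myocardin-related cofactors MRTFA and MRTFB were at -0.73 (adjusted p = 3.86e-05) and 0.14 (adjusted p = 0.366, both edgeR).

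Among 28 other genes of smooth muscle structure and signalling, 24 were tested, 5 were called lower and 1 higher, against 7.14% and 5.45% of all genes tested, with a median log2 fold change of -0.55. ACTG2 and HSPB6, 2 of the 5, passed the filter through their Control libraries, and 3 genes were called lower when at least 10 counts were required in every library. KCNMB1, the beta subunit of the large-conductance potassium channel of smooth muscle, had 827, 1096 and 1065 counts in Control and 10, 12 and 21 in SRRM4 KO. It went from 45.6 ± 6.62 to 0.632 ± 0.280 CPM (SD, n = 3), a 72.0-fold fall (log2 fold change -6.17, SE 0.22, adjusted p = 3.51e-11, edgeR). ACTG2 was given with the actins. HSPB6, a small heat shock protein of muscle, had 103, 83 and 56 counts in Control and 2, 3 and 0 in SRRM4 KO. SYNPO2 and FBLIM1, which link actin to adhesion sites, fell by 1.99 and 1.38 on the log2 scale. HSPB8, a small heat shock protein, rose by 1.48 on the log2 scale (SE 0.08, adjusted p = 1.45e-09, edgeR), from 73.1 ± 0.424 to 204 ± 2.76 CPM (SD, n = 3). SMTN (smoothelin), a marker of contractile smooth muscle, stood at 46.1 ± 7.51 CPM in Control and at 80.0 ± 2.93 CPM in SRRM4 KO (SD, n = 3), or 0.80 on the log2 scale, opposite in sign to the members. At any fold change, 19 of the 24 had an adjusted p under 0.05 and were lower and 3 were higher (edgeR), against 20.9% and 20.7% of all genes tested.

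**Figure D5:**
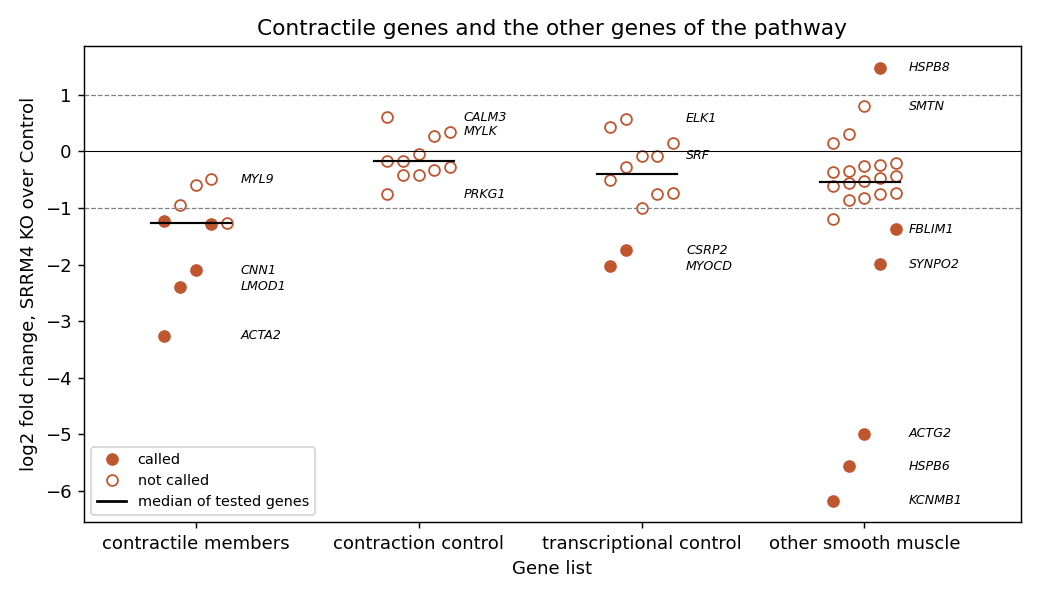
Log2 fold change (SRRM4 KO over Control) of each tested gene of the contractile members, the contraction control, the transcriptional control and the other smooth muscle genes. Filled points are called, open points are not, short lines are medians (-1.27, -0.17, -0.39 and -0.55), and dashed lines mark -1 and 1. No contraction control gene lies past a dashed line, and KCNMB1, HSPB6 and ACTG2 lie lowest.

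Markers of other cells were measured beside the members. The 7 smooth muscle markers (MYH11, CNN1, LMOD1, DES, ACTG2, MYOCD and SMTN) are members or genes already described, and their summed level was 362 to 468 CPM in Control and 155 to 168 CPM in SRRM4 KO. Of 7 pericyte markers, all tested, RGS5 (log2 fold change -2.88), PDGFRB (-2.14) and NOTCH3 (-2.46) were called lower and CSPG4 (1.46) higher, against 7.14% and 5.45% of all genes tested. MCAM (-0.59), KCNJ8 (-0.13) and ABCC9 (0.92, adjusted p = 0.00116, edgeR) were not called, so the list was mixed. The pericyte markers' summed level was 2039 to 2376 CPM in Control and 1416 to 1599 CPM in SRRM4 KO. The 6 endothelial markers summed to 14.0 to 16.2 CPM in Control, mostly TEK, and to 1.81 to 2.56 CPM in SRRM4 KO. TEK was called lower (log2 fold change -3.80) after passing the filter through its Control libraries. In SRRM4 KO replicates 1 to 3, TEK stood at 1.53, 0.411 and 1.05 CPM and VWF at 0.853, 1.15 and 1.05 CPM. VWF, the other endothelial marker tested, was not called (log2 fold change -0.35, adjusted p = 0.587, edgeR). PECAM1 had at most 3 counts and CDH5 at most 1 count in a library. The 6 skeletal muscle markers summed to at most 0.232 CPM, with MYOD1, MYOG and MYF5 at 0 in all libraries. The 5 haematopoietic markers summed to 19.7 to 21.2 CPM in Control and 17.9 to 20.96 CPM in SRRM4 KO, with PTPRC at no more than 2 counts, and the 6 epithelial markers to 97.0 to 118 CPM and 101 to 108 CPM, nearly all KRT18 and KRT8, with EPCAM at no more than 2 counts. The part of pericyte-like cells in the result was not tested.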

How the data were processed

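UE7T-9 RNA was sequenced as non-stranded mRNA on a NovaSeq system, with 3 Control and 3 SRRM4 KO libraries, grouped by title. The authors deposited raw read counts per gene, without normalization. The submitters' processing notes name HISAT2 2.0.5, featureCounts 1.5.0-p3 and DESeq2. The build and the handling of reads with several matches are not given in the sources used here. The annotation of GENCODE release 29 (GRCh38) held each of the 58735 gene IDs, and start and end were equal for 58724.

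Counts were tested with edgeR 4.0.16 in R 4.3.3 (TMM, filterByExpr, prior count 0.125, quasi-likelihood test, Benjamini-Hochberg over 15341 genes). Standard errors (SE) were derived from each gene's F statistic and fold change. CPM used TMM-scaled library sizes. No 2 libraries of a group agreed within sampling noise (chi-square per degree of freedom 5.06 to 23.5). The pairs with Control replicate 1 stood at 23.0 and 23.5, and the other pairs between 5.06 and 9.73. The fits were tested on simulated data. DESeq2 1.42.0, other normalizations, filters, thresholds, the replicate block and leaving out each library were alternatives. Named were all members, their paralogs and overlapping genes, SRF, MYOCD, MRTFA, MRTFB, MYLK, SMTN, the mesenchymal markers and called genes of the pathway lists; RHOA, ROCK1, ROCK2, PRKG1, CALM3 and the markers of other cells were added. The members and lists were chosen with earlier results of these data known.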

Additional observations from a re-analysis of the deposited data

How the results depend on the processing

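The 5 members called lower were between 4 (glmTreat, without TPM2) and 8 (no fold change threshold) in number over 15 alternatives, with 6 when no filter was used and 5 to 7 when a library was left out, and 0 were called higher in any. Every tested member stayed below 0 on the log2 scale in these fits. ACTA2 ran from -3.35 to -3.20, LMOD1 from -2.55 to -2.27, CNN1 from -2.20 to -2.05, TPM2 from -1.46 to -1.15, CALD1 from -1.27 to -1.16, TAGLN from -1.05 to -0.90 and MYH11 from -1.56 to -0.75. The normalizations tried moved the median of all genes to -0.04 at most. Counts in DES and MYH11 limit what can be said of them.

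With glmTreat 577 genes were lower and 360 higher, and with no fold change threshold 3213 and 3171. With that threshold removed, the lower and higher calls were 5 and 3 for contraction control, 7 and 1 for transcriptional control and 19 and 3 for the other smooth muscle genes. With at least 10 counts in every library, 3 of the other smooth muscle genes were called lower, since ACTG2 and HSPB6 were then not tested. In contraction control 1 gene was lower without the filter, and 0 to 1 when a library was left out (1 without Control replicate 3 or any SRRM4 KO replicate). TMOD3 was at -0.00088 without Control replicate 2 and ran up to 0.14 with another library left out.

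Family shares on raw counts instead of counts per kilobase differed between the groups by -6.81 percentage points for ACTA2, -3.96 for TPM1, -5.15 for TPM2, -18.0 for CNN1, -17.0 for LMOD1 and 0.214 for MYL9, against -7.55, -1.40, -11.4, -19.4, -30.3 and -0.518. With a library left out, the difference in share ran from -1.66 to -0.911 points for TPM1 and from -3.08 to 1.16 points for MYL9. The MYL9 difference was above 0 without Control replicate 2, Control replicate 3 (0.359) or SRRM4 KO replicate 3 (1.12).

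With the replicate number as a block, 5 members were called lower and 0 higher, and 1093 genes were lower and 842 higher over all. Nothing in the labels says that same-numbered libraries are paired. The correlations of their deviations from the group means were -0.0862, 0.109 and -0.102, and Control replicate 1 correlated best with SRRM4 KO replicate 3 (0.232). Deviations from a mean of 3 libraries constrain each other, so these values cannot decide whether libraries were paired.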
